A study of Mus musculus with 6 samples.

Results

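The genes described here are 41 fibroblast and extracellular matrix genes of the mouse dura, measured by bulk RNA-seq of sorted dural lymphatic endothelial cells (LECs). They were chosen by name, without collagens and small leucine-rich proteoglycans, and all 41 were found among the 55401 genes of the tables. Mice received an injection into the cisterna magna of a serotype 9 adeno-associated virus encoding full-length mouse VEGF-C (AAV-VEGF-C), the growth factor that drives lymphatic vessel growth. Controls received a virus encoding a soluble VEGFR-3 ectodomain fused to Ig that cannot bind VEGF-C (AAV-CTRL), so both groups carried a vector and a secreted product. The animals were wild-type C57BL/6J males, injected at 4 wk of age. LECs negative for CD45 and positive for LYVE-1, podoplanin and CD31 were sorted from the dura, and 10 to 12 mice were pooled for each library. The interval from injection to sorting is not given for these libraries in the sources used here. There were 3 libraries per group, 1 from each of 3 experiments, and libraries with the same number came from the same experiment. Each p-value therefore measures the spread between pools of animals and not between single animals.

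Fibroblasts of the dura lay down the collagenous sheet that surrounds meningeal lymphatic vessels. They secrete elastic fibre proteins, the proteins that tune cell contact with the matrix, and the proteases and inhibitors that remodel it. Many of them carry the PDGF-A receptor Pdgfra and depend on the transcription factor Foxc1 during meningeal development. The matrix around a lymphatic vessel is anchored to the endothelium by fine filaments and takes part in opening the vessel to fluid. LECs make some matrix proteins of their own, so a matrix transcript in a sorted LEC library is not by itself a fibroblast transcript.

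Total counts were 6530269 to 12399498 per library in AAV-CTRL and 564475 to 3261935 in AAV-VEGF-C, so depth and treatment cannot be told apart. LEC markers were present in all 6 libraries. Their summed level was 540 to 676 TPM (a transcript level corrected for gene length and library total) in AAV-CTRL and 186 to 350 TPM in AAV-VEGF-C, and 0 of 10 passed the test of edgeR (1 was lower at an unadjusted p of 0.05). Fibroblast collagens and proteoglycans (Col1a1, Col1a2, Col3a1, Dcn, Lum) were also present, at 1007 to 2109 TPM in AAV-CTRL and 258 to 840 TPM in AAV-VEGF-C, and exceeded the LEC markers in 5 of the 6 libraries. The experiments differed in leukocyte markers. Despite the CD45 gate these summed to 911 to 2728 TPM in both groups of experiments 2 and 3, and to 80.1 and 10.7 TPM in AAV-CTRL 1 and AAV-VEGF-C 1. The libraries of experiment 1 stand apart in this respect, so results are also given without them.

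The promoters of 4 genes, picked because of their values, are shown. Sparc was the gene that passed the test. Pdgfra, which marks the fibroblast lineage, and Aldh1a2, which makes retinoic acid, were among the 9 genes that were lower once experiments were paired. Cilp was higher in all 3 experiments, on few counts, and did not pass the unpaired test (edgeR adjusted p = 0.09). Each sequence runs from 250 bases before to 50 bases after the RefSeq start, on GRCm38.p6, and is written 5′ to 3′ on the gene's strand. The windows are chr11:55420031-55420330 (minus strand) for Sparc, chr5:75152001-75152300 (plus strand) for Pdgfra, chr9:71215539-71215838 (plus strand) for Aldh1a2 and chr9:65264930-65265229 (plus strand) for Cilp. Capitals mark matches to CAGACA (a SMAD-type repeat), CANATG (a Twist-type E-box) and CCAAT on either strand.
Sparc: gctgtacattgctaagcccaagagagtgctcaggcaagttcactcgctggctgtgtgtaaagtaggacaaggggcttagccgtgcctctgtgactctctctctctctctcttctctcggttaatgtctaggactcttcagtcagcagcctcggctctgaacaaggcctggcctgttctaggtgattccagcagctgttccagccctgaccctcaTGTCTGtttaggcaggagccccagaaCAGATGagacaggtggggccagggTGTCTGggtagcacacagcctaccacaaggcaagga
Pdgfra: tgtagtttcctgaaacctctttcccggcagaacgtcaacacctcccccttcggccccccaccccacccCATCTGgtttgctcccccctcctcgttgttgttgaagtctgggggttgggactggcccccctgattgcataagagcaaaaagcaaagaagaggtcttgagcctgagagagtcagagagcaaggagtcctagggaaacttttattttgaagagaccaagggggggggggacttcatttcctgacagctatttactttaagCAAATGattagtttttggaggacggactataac
Aldh1a2: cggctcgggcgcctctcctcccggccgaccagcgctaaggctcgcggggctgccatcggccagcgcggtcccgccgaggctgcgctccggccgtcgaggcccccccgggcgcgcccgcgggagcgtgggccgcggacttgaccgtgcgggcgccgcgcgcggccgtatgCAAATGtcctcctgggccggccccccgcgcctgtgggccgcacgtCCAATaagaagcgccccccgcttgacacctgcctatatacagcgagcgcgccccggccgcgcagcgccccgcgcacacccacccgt
Cilp: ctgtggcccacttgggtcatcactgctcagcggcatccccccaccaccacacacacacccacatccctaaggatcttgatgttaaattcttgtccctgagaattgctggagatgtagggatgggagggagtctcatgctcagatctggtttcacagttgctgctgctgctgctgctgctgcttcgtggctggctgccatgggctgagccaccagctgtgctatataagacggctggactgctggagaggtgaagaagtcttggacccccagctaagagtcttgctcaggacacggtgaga

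The Sparc window held 2 SMAD-type repeats, which began 36 bases before and 14 bases after the start, and 1 Twist-type E-box that began 10 bases before it. The Pdgfra window held 2 Twist-type E-boxes and the Aldh1a2 window held 1, with a CCAAT box 36 bases before its start. The Cilp window held none of the 7 motifs searched. GC content was 55.3% for Sparc, 51.0% for Pdgfra, 55.7% for Cilp and 78.0% for Aldh1a2, whose window had 50 CpG dinucleotides against 4 or 5 in the others. RefSeq promoters were matched for 28 of the 41 genes, with 34 promoters in all. Across these, GGGCGG (a GC box) was in 55.9% of promoters against 35.7% of all 32851 promoters, CCAAT in 44.1% against 37.4%, CAGACA in 26.5% against 21.0%, and CANATG in 41.2% against 39.4%. TATAAA (the TATA box) was in 20.6% against 13.6%, TGANTCA (an AP-1 site) in 2.94% against 7.81%, and GGAATG (a TEAD site) in 5.88% against 14.7%. Both strands were searched, and no motif contains another. A match of letters is a description of these windows.

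Levels were lower in AAV-VEGF-C for most of the 41 genes, but 1 passed the test across all genes. The median log2 fold change (AAV-VEGF-C over AAV-CTRL, on counts scaled by the TMM method) was -0.92 over the 40 genes tested, and 37 of them were below 0, where 50.2% of all 17459 tested genes were. The median over all tested genes was -0.0037. The background differed with abundance, and among the 7234 tested genes whose mean TPM was 5 or more the median was -0.41 and 76.0% were below 0. The 35 fibroblast and matrix genes above that level had a median of -0.96, and 33 of them lay below -0.41. In bulk RNA, fewer cells of a type and less RNA per cell cannot be told apart.

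At an adjusted p of 0.05 in the quasi-likelihood test of edgeR, 1 gene was lower (Sparc), where 0.659% of all tested genes were lower, and 0 were higher, where 10.5% were. At an unadjusted p of 0.05, 18 were lower, against 9.11% of all genes, and 1 was higher, against 19.0%. The 18 became 6 without AAV-CTRL 1, where 6.2% of all tested genes were lower, and 10 without AAV-VEGF-C 2, where 8.65% were. It became 2 with scaling on the 2000 genes of highest abundance, against 0.716% of all genes, and 1 of 34 tested when all libraries were drawn down to the smallest total, against 0.908%. With the experiment as a block, 9 were lower (Sparc, Pdgfra, Aldh1a2, Fstl1, Mmp2, Htra1, Serping1, Mgp and Gsn), against 2.07% of all genes, and 1 was higher (Cilp), against 12.8%. DESeq2, the tool of the original analysis, gave 13 lower, against 1.74%, and 1 higher (Cilp), against 19.5%. Without a filter on low counts, edgeR gave 21 lower, against 2.64%, and 1 higher (Cilp), against 21.1%. These 2 fits took in many more genes, 29007 with DESeq2 and 44563 without a filter. The median log2 fold change over all genes was 0.93 and 1.88 in them, so their shares are a different background. With a minimum mean TPM of 5, 0 genes of the set and 0 of all 7563 tested were lower.

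The CPM values (counts relative to the library total, scaled by TMM) of the 2 groups did not overlap for 20 genes that were lower in AAV-VEGF-C, where 17.6% of all tested genes were of this kind. They did not overlap for 1 gene that was higher, against 22.3%, and they overlapped for the other 20. In TPM, 34 of the 41 genes were lower without overlap, where 36.4% of all tested genes were. The summed TPM of the 41 genes was 4362, 2718 and 5881 in AAV-CTRL 1, 2 and 3, and 553, 741 and 1677 in AAV-VEGF-C 1, 2 and 3. The ratio of the group means was 0.229 in TPM and 0.499 in CPM. Housekeeping genes also had a lower summed TPM, with a ratio of 0.321, and 0 of 16 passed the test. At an unadjusted p of 0.05, 6 of them were lower, against 9.11% of all tested genes. In CPM, 8 of the 16 were lower without overlap.

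**Figure D1:**
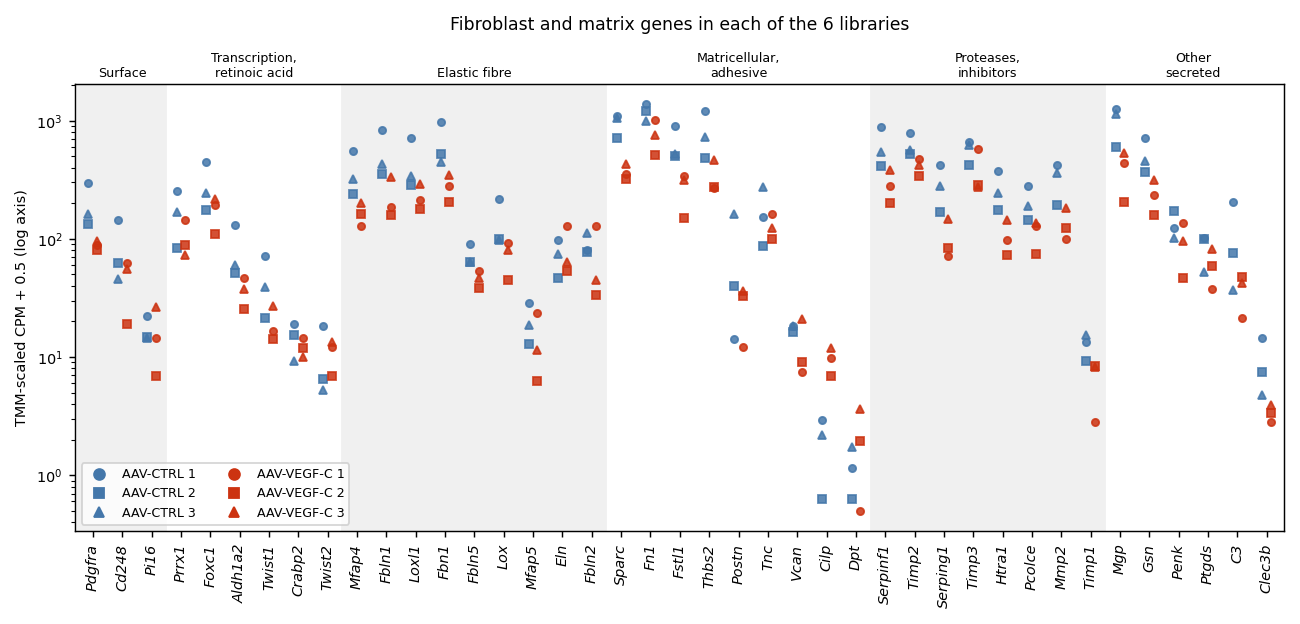
Points are TMM-scaled CPM plus 0.5 (log axis) of each of the 41 genes in each library, blue for AAV-CTRL and red for AAV-VEGF-C, with 1 symbol per experiment and genes grouped by role. The groups did not overlap for 20 genes that were lower in AAV-VEGF-C and for Cilp, which was higher.

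Sparc encodes a collagen-binding matricellular protein, also called osteonectin, and lies on chr11:55394500-55423183 (minus strand, GENCODE M21 on GRCm38), with no other annotated gene overlapping it. Its level was 1096, 707 and 1059 CPM in AAV-CTRL 1, 2 and 3, while it was 351, 318 and 426 CPM in AAV-VEGF-C 1, 2 and 3. The lowest control stood well above the highest AAV-VEGF-C library, and the gene was lower in all 3 experiments. The log2 fold change was -1.39 (SE 0.334, n = 3 per group, edgeR adjusted p = 0.0373), or 2.61-fold lower. It rests on 152 to 1483 counts per AAV-VEGF-C library. The adjusted p rose to between 0.0647 and 0.0901 when any single library was left out, and was 0.0843 without experiment 1 (log2 fold change -1.32). With the experiment as a block it was 0.0219.

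Of the other matricellular and adhesive genes, Fn1, which encodes the adhesive glycoprotein fibronectin, measured 1374, 1211 and 991 CPM in the controls and 1010, 514 and 760 CPM after AAV-VEGF-C. The groups overlapped, because AAV-VEGF-C 1 exceeded AAV-CTRL 3, and the log2 fold change was -0.65 (SE 0.377, adjusted p = 0.301). Fstl1, a secreted follistatin-related glycoprotein, measured 909, 505 and 518 CPM against 340, 150 and 312 CPM, without overlap (log2 fold change -1.27, adjusted p = 0.101, and 0.0299 with the block). Thbs2, a thrombospondin that restrains vessel growth, was also lower without overlap (log2 fold change -1.26, SE 0.44, adjusted p = 0.111). Postn, the matricellular protein periostin, ranged from 13.8 to 162 CPM within AAV-CTRL alone, and AAV-CTRL 3 decided its fold. The log2 fold changes of Tnc (tenascin-C, -0.42) and Vcan (the large proteoglycan versican, -0.40) were about as large as their standard errors (0.441 and 0.431). Fstl1, Thbs2 and the other genes outside the naming rule are described because of their values.

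Cilp, which encodes cartilage intermediate layer protein, was the exception in this group. In the controls it had 15, 1 and 25 counts, or 2.41, 0.127 and 1.69 CPM. With AAV-VEGF-C it had 4, 9 and 40 counts, or 9.24, 6.45 and 11.5 CPM. All AAV-VEGF-C libraries were above all controls in CPM, on very few counts. In edgeR the log2 fold change was 2.69 (SE 0.863, adjusted p = 0.09), and 3.08 with the block (adjusted p = 0.0385). Dpt, which encodes the collagen-binding protein dermatopontin, was not tested, since it had 4, 1 and 18 counts in the controls and 0, 2 and 11 after AAV-VEGF-C.

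The proteases, inhibitors and collagen-processing genes were the most uniform. All 8 were lower in all 3 experiments, for which no share over all genes was computed. For 7 the groups did not overlap, where 17.6% of all tested genes were lower without overlap. The median log2 fold change was -0.98, against -0.41 over tested genes whose mean TPM was 5 or more. Serpinf1, a secreted serpin also known as PEDF, which inhibits vessel growth, measured 892, 410 and 541 CPM in the controls and 277, 200 and 381 CPM after AAV-VEGF-C. The highest AAV-VEGF-C library was just below the lowest control (log2 fold change -1.10, SE 0.409, adjusted p = 0.128). Timp2, an inhibitor of metalloproteinases, measured 788, 527 and 562 CPM against 476, 343 and 423 CPM, without overlap (log2 fold change -0.60, SE 0.317, adjusted p = 0.262).

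Serping1, the C1 inhibitor of the complement system, had the most negative log2 fold change of the 40 genes tested. It measured 422, 169 and 282 CPM in the controls and 71.6, 82.4 and 146 CPM after AAV-VEGF-C (log2 fold change -1.53, SE 0.438, adjusted p = 0.0656, and 0.0308 with the block). Htra1, a secreted serine protease, measured 374, 174 and 245 CPM against 97.1, 72.4 and 143 CPM. Its log2 fold change was -1.34 (adjusted p = 0.0738, and 0.0262 with the block). Mmp2, a gelatinase that digests basement membrane, measured 420, 192 and 359 CPM against 99.4, 123 and 182 CPM, with an adjusted p of 0.0845, and 0.0459 with the block. Neither of these genes overlapped between groups. Pcolce, an enhancer of procollagen processing, had a log2 fold change of -0.86, as did the inhibitor Timp1, which had 1, 11 and 27 counts in AAV-VEGF-C. Timp3, the matrix-bound inhibitor, was the gene of this group whose groups overlapped (log2 fold change -0.59, adjusted p = 0.372).

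**Figure D2:**
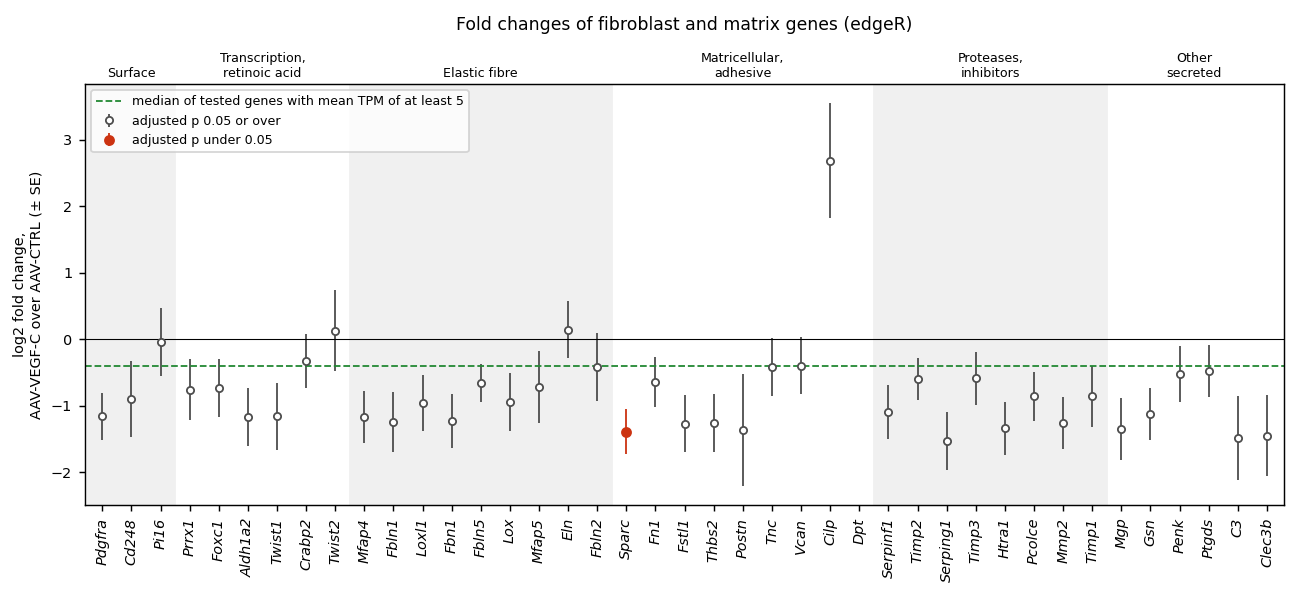
Points are edgeR log2 fold changes (AAV-VEGF-C over AAV-CTRL) with standard errors for the 40 genes tested, filled red where the adjusted p was under 0.05. Of these, 37 lay below 0 and Sparc passed the test, and the dashed line is the median of -0.41 over tested genes whose mean TPM was 5 or more.

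Elastic fibre genes had a median log2 fold change of -0.95. Of the 9, 7 were lower in all 3 experiments, again with no share over all genes computed. Mfap4, a microfibril-associated glycoprotein, measured 549, 237 and 322 CPM in the controls and 129, 163 and 200 CPM after AAV-VEGF-C, without overlap (log2 fold change -1.17, SE 0.385, adjusted p = 0.0961). Fbln1, which encodes fibulin-1, measured 834, 351 and 433 CPM against 185, 159 and 332 CPM, again without overlap and with the smallest distance in experiment 3 (log2 fold change -1.25, SE 0.454, adjusted p = 0.121). Fbn1 (fibrillin-1, the backbone of microfibrils), Fbln5 (a fibulin needed for elastic fibre assembly) and Lox (the enzyme that cross-links elastin and collagen) were lower without overlap as well, with log2 fold changes from -1.23 to -0.66. Loxl1, a relative of Lox, had a log2 fold change of -0.96 and Mfap5, a microfibril glycoprotein, of -0.72, both with overlap. None of the 9 passed the test, and 4 were lower at an unadjusted p under 0.05, where 9.11% of all tested genes were.

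Eln, which encodes elastin itself, did not follow the other elastic fibre genes. It measured 96.5, 46.3 and 74.5 CPM in the controls and 129, 53.0 and 62.7 CPM after AAV-VEGF-C (log2 fold change 0.14, SE 0.43, adjusted p = 0.869). The groups overlapped throughout. Fbln2 measured 79.3, 76.7 and 111 CPM against 129, 33.0 and 44.3 CPM, so AAV-VEGF-C 1 was the highest of all libraries. Its log2 fold change was -0.42 (SE 0.511, adjusted p = 0.637), and -0.64 with the block (adjusted p = 0.326). Without experiment 1, a setting chosen after seeing the data, it was -1.34 (edgeR adjusted p = 0.0455), and Fbln2 was then the only one of the 41 genes that passed, where 0.572% of all genes tested were lower.

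Other secreted proteins had the most negative median, -1.24, of 6 genes. Mgp, which encodes the calcification inhibitor matrix Gla protein, was the most abundant of the 41 genes per length, with a mean TPM of 1416 ± 807 (SD, n = 3) in controls and 244 ± 189 in AAV-VEGF-C. It took 25.8% to 39.0% of the summed TPM of the 41 genes in AAV-CTRL and 18.5% to 27.5% in AAV-VEGF-C. In CPM it measured 1251, 600 and 1143 against 434, 206 and 533, without overlap. The log2 fold change was -1.35 (SE 0.471, adjusted p = 0.11, and 0.0215 with the block). Gsn, the actin-severing protein gelsolin, measured 718, 367 and 458 CPM against 233, 159 and 315 CPM, again without overlap (log2 fold change -1.12, SE 0.393, adjusted p = 0.111, and 0.0479 with the block).

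The complement component C3 measured 205, 75.9 and 36.4 CPM in the controls and 20.8, 47.3 and 41.7 CPM after AAV-VEGF-C. AAV-CTRL 1 was far above the other controls, and in experiment 3 the AAV-VEGF-C library was the higher one (log2 fold change -1.49, SE 0.632, adjusted p = 0.171). Clec3b, which encodes tetranectin, rested on 1, 4 and 12 counts after AAV-VEGF-C and did not overlap between groups in CPM. Ptgds, the prostaglandin D2 synthase of the meninges, and Penk, the enkephalin precursor, overlapped, with log2 fold changes of -0.48 and -0.52.

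Among the surface genes, Pdgfra measured 296, 134 and 163 CPM in the controls and 87.8, 80.3 and 96.0 CPM after AAV-VEGF-C, without overlap (log2 fold change -1.16, SE 0.356, adjusted p = 0.079, and 0.0495 with the block). Cd248, which encodes the stromal surface protein endosialin, measured 143, 61.4 and 45.6 CPM against 62.4, 18.6 and 54.9 CPM, with overlap, since experiment 3 went the other way (log2 fold change -0.90, SE 0.572, adjusted p = 0.344). Pi16, a marker of a fibroblast state found in many tissues, did not separate the groups (log2 fold change -0.041, SE 0.51).

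Transcription factors and retinoic acid genes separated the groups least. Aldh1a2 alone of 6 was lower without overlap, near the 17.6% of all tested genes that were. Foxc1, a forkhead factor of the developing meninges, measured 446, 174 and 243 CPM in the controls and 192, 110 and 215 CPM after AAV-VEGF-C (log2 fold change -0.74, SE 0.435, adjusted p = 0.305). Prrx1, a homeobox factor of mesenchyme, measured 256, 84.0 and 169 CPM against 143, 88.9 and 72.8 CPM (log2 fold change -0.76, SE 0.458, adjusted p = 0.321). Both sets of libraries overlapped. Aldh1a2, the enzyme that makes retinoic acid, measured 130, 51.0 and 59.6 CPM against 46.2, 25.1 and 37.4 CPM (log2 fold change -1.17, SE 0.44, adjusted p = 0.132, and 0.0459 with the block). The bHLH factor Twist1 had a log2 fold change of -1.16 (SE 0.502), and its relative Twist2 of 0.13 (SE 0.612). Crabp2, which carries retinoic acid within the cell, had a log2 fold change of -0.33 (SE 0.409).

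The difference was largest in experiment 1. The median log2 ratio of CPM over the 41 genes, AAV-VEGF-C over AAV-CTRL, was -1.30 in experiment 1, -0.82 in experiment 2 and -0.48 in experiment 3. Over tested genes whose mean TPM was 5 or more it was -0.64, -0.31 and -0.35. Of the 41 genes, 27 were lower in all 3 experiments, 9 in 2, 4 in 1 and 1 (Cilp) in none. The share of all genes that were lower in all 3 was not computed. Genes whose mean TPM was 5 or more also had medians below 0 in each experiment. Within the controls, 35 of the 41 genes were highest in AAV-CTRL 1, and 29 were lowest in AAV-CTRL 2. Over all tested genes, 35.7% were lowest in AAV-CTRL 2, and the share highest in AAV-CTRL 1 was not computed. Without experiment 1 the median log2 fold change over the tested genes of the set was -0.75, against 0.06 over all genes tested, and 1 (Fbln2) was lower by the test, against 0.572% of all genes.

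**Figure D3:**
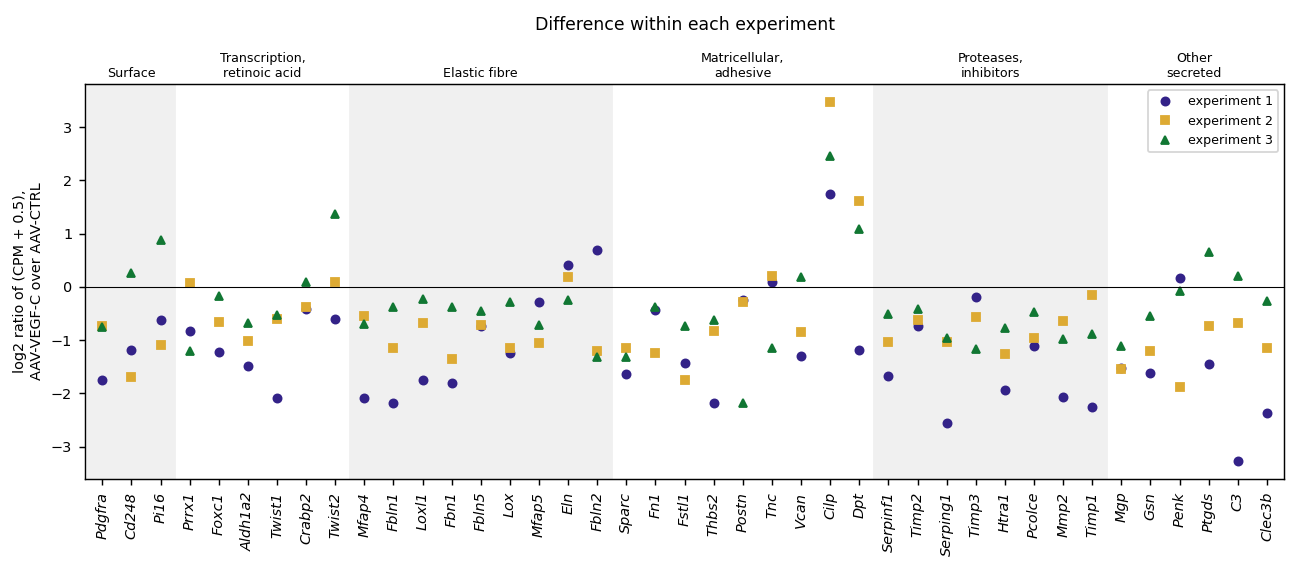
Points are the log2 ratio of CPM plus 0.5, AAV-VEGF-C over AAV-CTRL, within each of the 3 experiments (1 colour and symbol each) for the 41 genes, grouped by role. The points of experiment 1 reach lowest, with a median of -1.30, and those of experiment 3 lie nearest to 0, with a median of -0.48.

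The levels of other cell types were set beside these values. The 41 genes summed to 16026, 8671 and 11007 CPM in the controls and 6574, 4350 and 6890 CPM after AAV-VEGF-C. Relative to fibroblast collagens and proteoglycans this was 0.751, 0.988 and 1.16 in the controls and 0.855, 0.743 and 0.686 after AAV-VEGF-C, with overlap. Relative to LEC markers it was 5.66, 4.85 and 7.47 in the controls and 1.58, 3.24 and 7.76 after AAV-VEGF-C, with the highest value in AAV-VEGF-C 3. The 5 collagen and proteoglycan genes had a median log2 fold change of -0.87, and 1 of them fell (Dcn, the proteoglycan decorin, log2 fold change -1.69, adjusted p = 0.0287). The 3 collagens did not pass (adjusted p from 0.187 to 0.506), and the summed CPM of the 5 genes overlapped between groups, at 8781 to 21352 in the controls and 5857 to 10044 after AAV-VEGF-C. Their part in the result was not tested.

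The remaining marker lists gave few calls, as did the 41 genes, of which 1 passed the test with a median of -0.92 over those tested. LEC markers had a median log2 fold change of 0.10. Leukocyte markers had -0.11, mural cell markers -0.69, blood endothelial markers -1.15 and arachnoid barrier markers -0.51, each with 0 genes passing the test and, at an unadjusted p of 0.05, 0, 0, 0 and 1. The log2 fold change was below 0 for 4 of 10 LEC, 7 of 8 leukocyte, 8 of 8 mural, 8 of 8 blood endothelial and 4 of 6 arachnoid barrier markers. Of 8 osteoblast and tendon markers, Tnmd, a tendon membrane protein, fell (log2 fold change -2.19, edgeR adjusted p = 0.0399, on 2, 3 and 19 counts after AAV-VEGF-C). Dmp1, an osteocyte matrix protein, rose (4.34, adjusted p = 0.0193, on 6 to 44 counts per AAV-VEGF-C library). Of 6 Schwann cell markers, the transcription factor Sox10 rose (2.60, edgeR adjusted p = 0.0328). It had 10, 22 and 43 counts after AAV-VEGF-C and 6, 20 and 64 in the controls. Of all tested genes 10.5% were higher and 0.659% lower. Leukocyte markers were low in both libraries of experiment 1, and their part in the larger differences of that experiment was not tested. Housekeeping genes had a median of -0.68, with 15 of 16 below 0, where 50.2% of all tested genes were. Of the 16, 8 were lower without overlap in CPM, and of the 41 genes 20 were. The share over all tested genes was 17.6%.

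**Figure D4:**
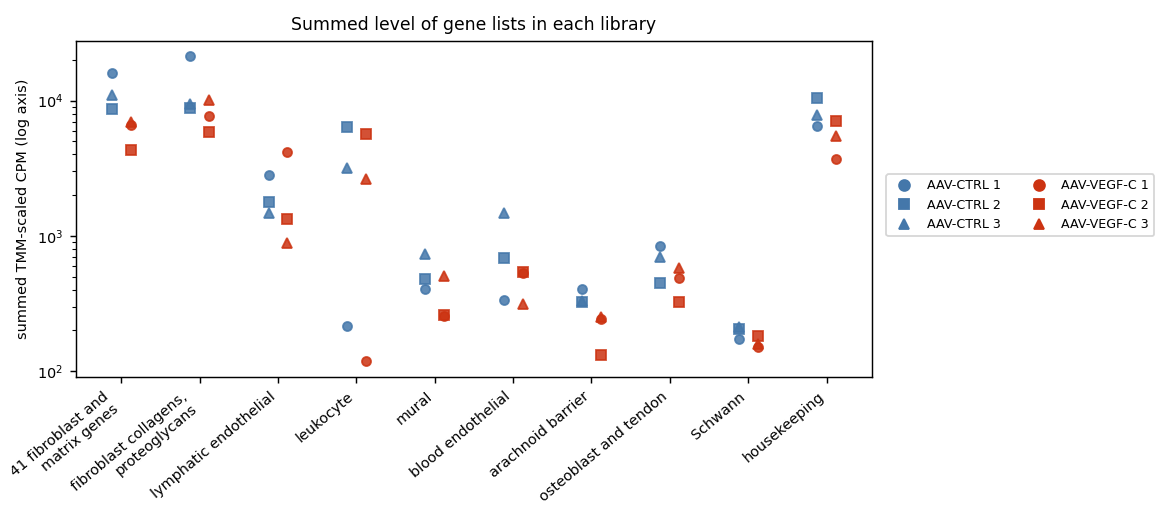
Points are summed TMM-scaled CPM (log axis) of each gene list in each library, blue for AAV-CTRL and red for AAV-VEGF-C, with 1 symbol per experiment. The 41 genes summed to 4350 to 6890 with AAV-VEGF-C and to 8671 to 16026 in the controls, and leukocyte markers were low in both libraries of experiment 1.

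Other matrix genes of the same kinds were read next, from lists of 85 genes, of which 83 were tested. Of these, 2 were lower, where 0.659% of all tested genes were, and 2 were higher, where 10.5% were. The log2 fold change was below 0 for 61, with a median of -0.60. Of all tested genes 50.2% were below 0, and 76.0% of those whose mean TPM was 5 or more. Efemp1, a fibulin-like elastic fibre protein, measured 155, 133 and 120 CPM in the controls and 71.6, 50.2 and 70.5 CPM after AAV-VEGF-C (log2 fold change -1.09, SE 0.275, adjusted p = 0.0432). Adamts1, a secreted metalloprotease that cleaves proteoglycans, measured 492, 323 and 472 CPM against 162, 175 and 216 CPM (log2 fold change -1.22, SE 0.304, adjusted p = 0.0414). The 2 that were higher had few counts: Tnr (tenascin-R, 15 to 37 per AAV-VEGF-C library, log2 fold change 4.59, adjusted p = 0.0193) and Timp4 (a metalloproteinase inhibitor, 7 to 25 counts, log2 fold change 3.04, adjusted p = 0.0476). By list, the medians were -0.65 for elastic fibre, -0.77 for matricellular, -0.42 for protease and inhibitor and -0.23 for meningeal fibroblast genes. Of 23 meningeal fibroblast genes 0 passed, and 4 were lower at an unadjusted p of 0.05, where 9.11% of all tested genes were. Leaving out any single library gave 0 or 1 lower and 0 to 3 higher. In those fits 0% to 0.264% of all tested genes were lower and 0% to 9.73% higher.

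Overlapping gene models make some counts uncertain. A gene annotated on the same strand overlaps 7 of the 41 genes and one on the other strand overlaps 18, or 21 in all. Pdgfra, Prrx1, Timp2, Gsn and C3 overlap a gene on their own strand. Sparc, Mgp, Serpinf1, Serping1, Mmp2, Fstl1 and Cilp overlap none.

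**Figure D5:**
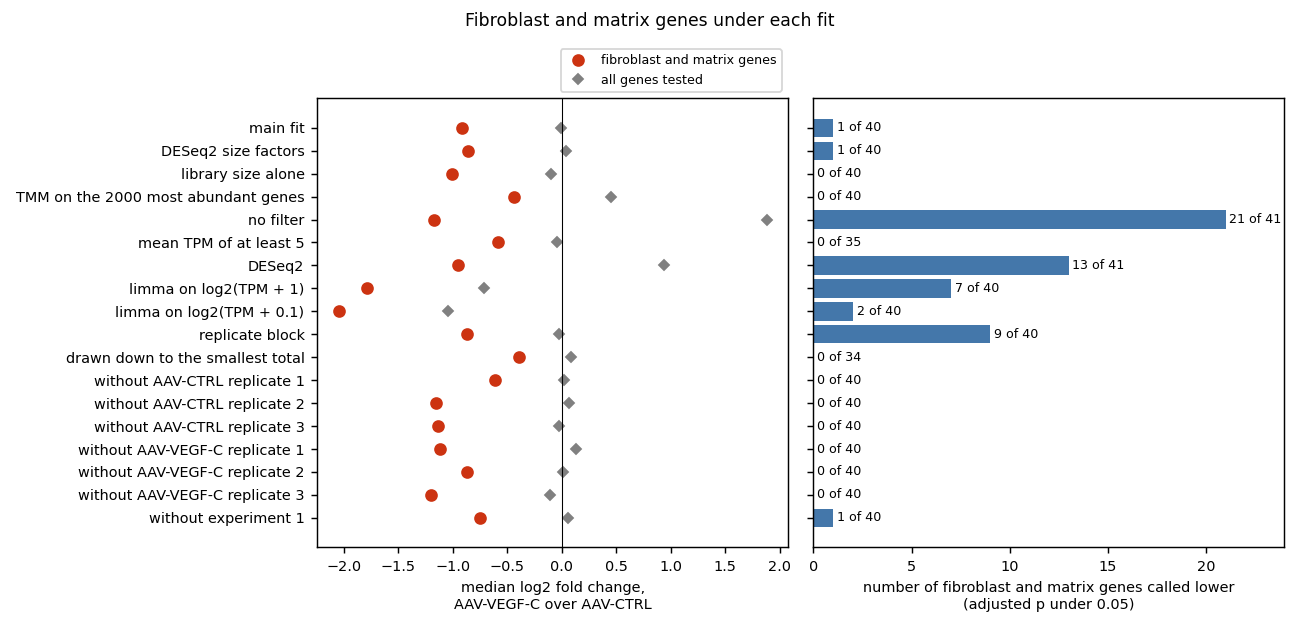
The left panel shows the median log2 fold change over the tested genes of the set (red) and over all genes tested (grey) under each way of fitting, and the right panel shows how many of the set were lower at an adjusted p under 0.05. The median of the set was below 0 under every fit shown (-2.05 to -0.39), and the count ran from 0 to 21.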

How the data were processed

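Bulk RNA-seq of 6 libraries of sorted dural LECs was analysed. The authors deposited 1 table of unscaled estimated counts per gene and 1 of TPM, which adjusts for gene length and library total. The submitters' processing notes name the mm10 build, FastQC, Trimmomatic, DRAGEN and Picard. The aligner, the counting program and the use of strand are not given in the sources used here. GENCODE M21 holds 98.1% of the identifiers in the same version, including all 41 genes described.

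Groups came from the labels. Estimated counts were rounded, genes were kept by filterByExpr of edgeR (4.0.16, in R 4.3.3), TMM factors scaled the libraries, and the groups were compared with a quasi-likelihood test and Benjamini-Hochberg adjustment over all 17459 tested genes at 0.05. CPM were computed from the counts. DESeq2 (1.42.0), limma (3.58.1) on log2(TPM + 1) and log2(TPM + 0.1), other scalings and filters, a replicate block, drawn-down counts and leaving out each library were tried as alternatives. The code was tested on simulated data.

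The genes described, the lists and the settings were chosen with earlier results of these data known. Values per library are given for genes with an adjusted p under 0.05 and for the 2 genes of highest mean TPM in each role. They are also given for Fstl1, Cilp, Dpt, Serping1, Htra1, Mmp2, Eln, Fbln2, C3 and Aldh1a2, which were picked because of their values. Same-numbered libraries are from the same experiment by the labels. Their deviations from the group means correlated across genes at 0.398, 0.335 and 0.141 for numbers 1, 2 and 3. Libraries of unlike numbers gave -0.443 to 0.229, and AAV-CTRL 3 correlated more with AAV-VEGF-C 2 (0.229) than with AAV-VEGF-C 3. The edgeR comparison behind the main results did not use the pairing, and the fit with the experiment as a block did. Every pair of libraries of a group differed beyond sampling noise (chi-square of 7.7 or more per degree of freedom). Totals of 564475 to 12399498 counts limit the low genes of AAV-VEGF-C most.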

Additional observations from a re-analysis of the deposited data

How the results depend on the processing

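The number of the 41 genes that were lower (1 in edgeR) was 1 with DESeq2 size factors, 0 with library size alone, 0 with scaling on the top 2000 genes by abundance, 21 without a filter, 0 with a minimum mean TPM of 5, 13 with DESeq2, 7 and 2 with limma (pseudocounts 1 and 0.1), 9 with the replicate block, 0 after drawing counts down to the smallest total, and 0 without any single library (6 to 22 at an unadjusted p of 0.05, lowest without AAV-CTRL 1). At the same unadjusted p, library size alone gave 20, the top 2000 genes 2, a minimum of 5 TPM 4 and drawn-down counts 1. The share of all tested genes that were lower in these fits was 0.659% in edgeR, 0.636% with DESeq2 size factors, 0.304% with library size alone, 0.0458% with the top 2000 genes, 2.64% without a filter, 1.74% with DESeq2, 2.49% and 0.934% with limma and 2.07% with the block. No gene of all those tested was lower at 5 TPM, drawn down, or without AAV-CTRL 2, AAV-CTRL 3 or AAV-VEGF-C 2, and 8 to 48 were without each of the other libraries, so the 0 of the set in those fits says little about it. At the unadjusted p the shares were 5.45% to 10.3% without single libraries, 7.55% with library size alone, 0.716% with the top 2000 genes, 4.47% at 5 TPM and 0.908% drawn down. The number higher (0) became 1 with no filter, DESeq2 and the block, and was 0 without any single library. The setting without experiment 1 was chosen after seeing the data and gave 1 lower, against 0.572% of all genes. The median log2 fold change (-0.92) became -0.44, -1.79, -2.05 and -0.39 with the 2000 genes, limma at both pseudocounts and drawn-down counts, where the median of all tested genes was 0.45, -0.72, -1.04 and 0.08. It was -1.20 (without AAV-VEGF-C 3) to -0.61 (without AAV-CTRL 1) when single libraries were left out, and it was below 0 in all of these. The summed TPM ratio (0.229) was 0.499 in CPM and 0.150 (without AAV-VEGF-C 3) to 0.280 when single libraries were left out. Other matrix genes lower (2) numbered 1 with DESeq2 size factors, 1 with library size alone, 0 with the 2000 genes, 23 with no filter, 0 at 5 TPM, 7 with DESeq2, 5 and 1 with limma, 5 with the block, 0 drawn down, 1 without experiment 1, and 0 to 1 without any single library. Those higher (2) numbered 5 with no filter, 0 at 5 TPM, 0 and 0 with limma, 0 drawn down, and 0 to 3 without any single library. The share of all tested genes that were higher was 21.1% with no filter, 0.119% at 5 TPM and 6.37% and 7.34% with limma. It was 0% drawn down and 0% to 9.73% without any single library. The cause of these moves was not tested.

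Sparc kept its direction in all of these fits. It missed the threshold with library size alone (edgeR adjusted p = 0.0531), the 2000 genes (0.12), 5 TPM (0.304), limma at 0.1 (0.051), drawn-down counts (1), without experiment 1 and without any single library (0.0647 to 0.0901). Low or near-zero changes turned sign: Pi16 to 0.001 with DESeq2 size factors, 0.44 with the 2000 genes and 0.21 without experiment 1 (-0.93 to 0.23 without any single library); Twist2 to -0.098 with no filter and -0.76 and -1.06 with limma (-0.32 to 0.90 without any single library); and Eln to -0.04 with library size alone, -0.15 with no filter, -0.74 and -0.80 with limma and -0.13 without experiment 1 (-0.37 to 0.35 without any single library). With the 2000 genes Crabp2 was 0.13, Fbln2 0.081, Vcan 0.069 and Tnc 0.058. At 5 TPM Crabp2 was 0.017 and Fbln2 0.02. Larger falls also turned sign with drawn-down counts. Prrx1 (-0.76 in edgeR) was then 0.044 (SE 0.652), Fbln5 (-0.66) was 0.41 (SE 1.22) and Tnc (-0.42) was 0.18 (SE 0.486). The block changed the calls named in the report and no other direction among the 41 genes. Depth limits Cilp, Dpt, Vcan, Timp1 and Clec3b, each with fewer than 5 counts in 1 or more AAV-VEGF-C libraries.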
